A study of Danio rerio with 12 samples.

Results

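Transcript levels of the piRNA pathway and of vasa were examined in adult zebrafish gonads and bodies. The genes were piwil1, piwil2, gtsf1, pld6, rnf17, tdrd7a and ddx4, the zebrafish vasa gene, and every probe set of the array whose only annotated gene symbol was one of these 7 was used. This gave 8 of the 15502 probe sets analysed, with piwil1 measured by 2 probe sets and each of the other genes by 1. The brighter piwil1 probe set stands for the gene and the other is called the second. The array carries probe sets for 8793 genes with a single symbol. All fish were wild type of the AB strain, full siblings of 4 to 12 months, and males and females had been kept apart for 5 days after spawning. RNA came from 4 groups of 3 samples, each hybridised to its own Affymetrix Zebrafish Genome array: testes, male bodies without testes, ovaries, and female bodies without ovaries. No group carried a transgene, mutation or drug. A fish gave both its gonad and the rest of its body, so the body samples are mixtures of all other organs, and the 3 arrays of a group are different fish.

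Piwi-interacting RNAs, or piRNAs, are small RNAs of the animal germline. They are bound by Argonaute proteins of the PIWI class and guide these to the transcripts of transposons, which are then cut or silenced. Much of this work takes place in germ granules, clusters of RNA and protein beside the nucleus and the mitochondria, where the RNA helicase Vasa and proteins with Tudor domains gather. In zebrafish the PIWI proteins are Ziwi, encoded by piwil1, and Zili, encoded by piwil2, and fish that lack either lose their germ cells. Both testis and ovary use the pathway, and in oocytes several of its products are also stored for the embryo.

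The values are GCOS signals, a linear brightness per probe set that the authors scaled so that each array had the same trimmed mean. Signals below a floor of 32 were set to 32 for testing. Comparisons of groups used limma on log2 signals, with p-values adjusted by Benjamini-Hochberg over all probe sets tested and called under 0.05. The ovary arrays had 33.0% to 35.7% of their probe sets at the floor, against 10.4% to 18.3% on the arrays of the other groups. The marker genes of each tissue matched the labels of testis, ovary and male body, with some body tissue signal in testis. The summed signal of 23 body tissue markers was 369700 to 464700 in male body, 27390 to 33840 in testis and 1297 to 1466 in ovary. The summed signal of 14 oocyte markers was 132400 to 153500 in ovary, 4442 to 5351 in testis and 300.8 to 639.6 in male body, where 6 of the 14 were at the floor on all arrays. In the female bodies, from which the ovaries had been taken out, it was 111300, 77270 and 55080 on arrays 1, 2 and 3. Every comparison with the female bodies therefore includes arrays on which oocyte markers were bright, with array 1 brightest.

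Of the 7 genes, 6 were male-enriched, that is, higher in testis than in ovary, and gtsf1 was female-enriched. The 3 testis and 3 ovary values did not overlap for any of the 8 probe sets. Among all probe sets tested, 42.5% were called higher in testis and 24.4% lower, and the groups did not overlap in 49.9% and 26.4%, so calls of either sign were common on these arrays. The median log2 difference was 2.16 over the 7 genes and 0.36 over all probe sets. The arrays measure whole tissues, so fewer cells of a type and less RNA per cell cannot be told apart.

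Among the PIWI proteins, piwil1 gave signals of 5033.5, 3751.1 and 6036.6 in the 3 testes and 1417.3, 767.5 and 494.5 in the 3 ovaries. The lowest testis was well above the highest ovary. The difference was 2.58 on the log2 scale (SE 0.38, adjusted p = 8.0e-04), or 5.96-fold. The second piwil1 probe set read 5180.4, 3468.9 and 5810.1 in testis and 812.9, 795.0 and 516.3 in ovary, a log2 difference of 2.76 (SE 0.25). Over all 12 arrays the log2 signals of both piwil1 probe sets had a Pearson correlation of 0.987. For piwil2, which encodes the other PIWI protein, the testes gave 5046.3, 3739.4 and 3718.7 and the ovaries 690.6, 1090.1 and 1042.4. It was 4.47-fold higher in testis (log2 2.16, SE 0.22, adjusted p = 1.2e-04), and the first ovary was the lowest of its group.

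Of the factors that work directly with PIWI proteins or their RNAs, pld6 and gtsf1 differed in opposite directions. The pld6 protein sits on the mitochondrial surface, and its fly and mouse counterparts are needed to form piRNAs. Its signals were 4336.5, 3003.5 and 3734.8 in testis and 505.5, 671.3 and 580.4 in ovary, both groups tight relative to the gap between them. The testes were 6.27-fold higher (log2 2.65, SE 0.18, adjusted p = 2.1e-05). The gtsf1 gene encodes a small zinc finger protein that acts as a partner of PIWI proteins in flies and mice. It gave 6490.4, 7862.8 and 4915.2 in testis against 11269.7, 9387.0 and 10332.1 in ovary. All 3 ovaries lay above all 3 testes. The log2 difference was -0.71 (SE 0.18, 95% interval -1.13 to -0.29, adjusted p = 0.0099), so gtsf1 was 1.63-fold higher in ovary.

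The Tudor domain proteins bind methylated arginines, including those on PIWI proteins, and help to build germ granules. The rnf17 gene, whose mouse counterpart is needed for spermatid development, gave 3849.6, 3108.7 and 2653.8 in testis and 1476.9, 1521.1 and 1419.3 in ovary. The ovaries were close together and below every testis, and the testes were 2.15-fold higher (log2 1.11, SE 0.15, adjusted p = 5.5e-04). For tdrd7a, which encodes a germ granule protein, the testes gave 6074.2, 7287.6 and 5150.9 and the ovaries 2198.7, 1961.1 and 2107.3. It was 2.93-fold higher in testis (log2 1.55, SE 0.14, adjusted p = 8.2e-05). The ddx4 gene encodes Vasa, the DEAD-box helicase long used to mark germ cells. Its signals were 6990.4, 5647.1 and 5516.6 in testis and 1098.9, 602.9 and 967.2 in ovary. This was the largest difference of the 7 genes, 6.98-fold (log2 2.80, SE 0.24, 95% interval 2.24 to 3.36, adjusted p = 5.4e-05).

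**Figure D1:**
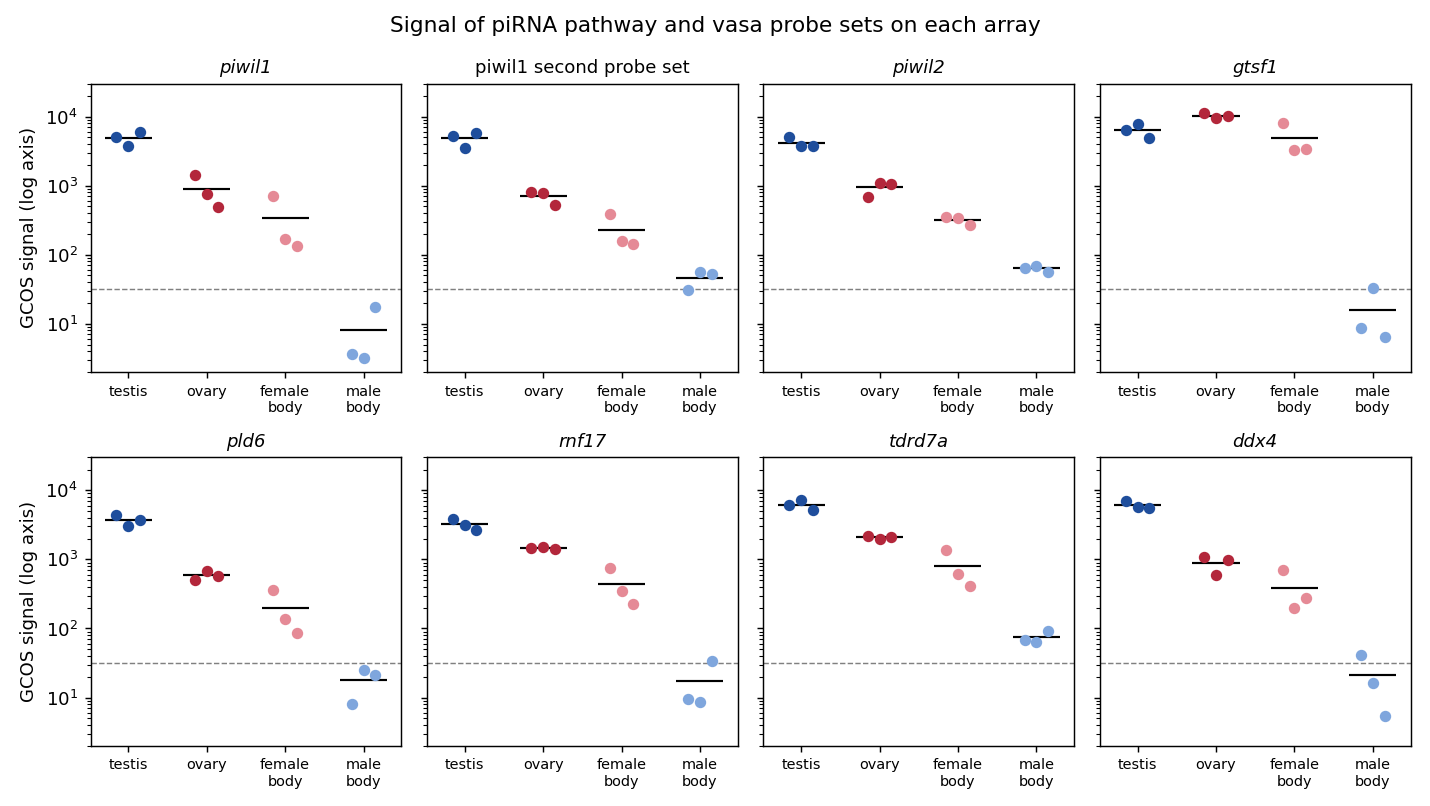
GCOS signal (log axis) of the 8 probe sets on each of 12 arrays, with points for single arrays, bars for the arithmetic mean of 3 and a dashed line at the floor of 32. Testis lies above ovary in all panels but gtsf1, where the ovaries at 9387.0 to 11269.7 lie above the testes at 4915.2 to 7862.8, and the male bodies are lowest in every panel.

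How these differences depend on scaling was examined because many more probe sets were called male-enriched (5934) than female-enriched (3413). With each array centred on its median the split turned to 3469 higher and 6420 lower, and the median of all probe sets moved from 0.36 to -0.44. The direction of each of the 7 genes held under all scalings tried. Under median centring rnf17 was no longer called (log2 0.30, adjusted p = 0.18), while gtsf1 had a log2 difference of -1.51 (adjusted p = 8.4e-05). Under quantile normalization gtsf1 was not called (log2 -0.47, adjusted p = 0.08), nor in 1 fit of all 12 arrays (log2 -0.71, adjusted p = 0.058). The other 5 genes kept their calls under every alternative tried, with log2 differences of 0.75 or more, the lowest being that of tdrd7a under median centring.

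All 7 genes were testis-upregulated, that is, higher in testis than in male body, and no testis array overlapped a male body array for any of the 8 probe sets. Among all probe sets 29.2% were called higher in testis, and the groups were apart with testis higher in 32%. The median log2 difference was 6.83 over the 7 genes, a lower bound since it is that of pld6, and -0.12 over all probe sets. The male body signals were near or below the floor. The 3 arrays read 3.6, 3.2 and 17.3 for piwil1 and 8.1, 25 and 21.5 for pld6, all below 32, so that by these probe sets piwil1 was at least 151-fold and pld6 at least 114-fold higher in testis (adjusted p from limma 5.7e-07 and 5.4e-07). The second piwil1 probe set, with 1 male body at the floor, gave 103-fold (log2 6.69, SE 0.29), so the size for piwil1 depends on the probe set. For gtsf1 they read 8.6, 32.7 and 6.4, for rnf17 9.4, 8.5 and 33.4, and for ddx4 41.8, 16 and 5.4. With 2 of 3 arrays at the floor in each, their log2 differences of 7.61, 6.61 and 7.43 depend on where the floor is set. At a floor of 100 they were 5.98, 4.98 and 5.91, and all remained called.

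Only piwil2 and tdrd7a, together with the second piwil1 probe set, were read above the floor in most male bodies. The piwil2 signals were 65.0, 69.5 and 56.0, and those of tdrd7a 69.1, 62.9 and 90.4. Testis was 65.2-fold higher for piwil2 (log2 6.03, SE 0.19) and 83.4-fold for tdrd7a (log2 6.38, SE 0.21). The second piwil1 probe set read 30.7, 56.7 and 52.0 in male body, above the other piwil1 probe set on every array. What signals this low measure was not tested.

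The ovaries exceeded the male bodies as well, in a comparison that shares the male body arrays with the one before. All 7 genes were higher in ovary and no array overlapped, where 31.2% of all probe sets were called higher and 32.4% were apart with ovary higher. The log2 differences ran from 3.87 for piwil2 (SE 0.23, 14.6-fold) to 8.32 for gtsf1 (SE 0.13, 320-fold with 2 male body arrays at the floor), with a median of 4.67, that of piwil1 and a lower bound, against -0.35 over all probe sets. Against male bodies at the floor, piwil1 was at least 25.4-fold and pld6 at least 18.2-fold higher in ovary, while the second piwil1 probe set gave 15.2-fold (log2 3.93, SE 0.30). The log2 differences of rnf17, tdrd7a and ddx4 were 5.50, 4.83 and 4.62. Relative to the male body, then, both gonads were rich in all 7 transcripts, and testis was the higher of both gonads in all but gtsf1.

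**Figure D2:**
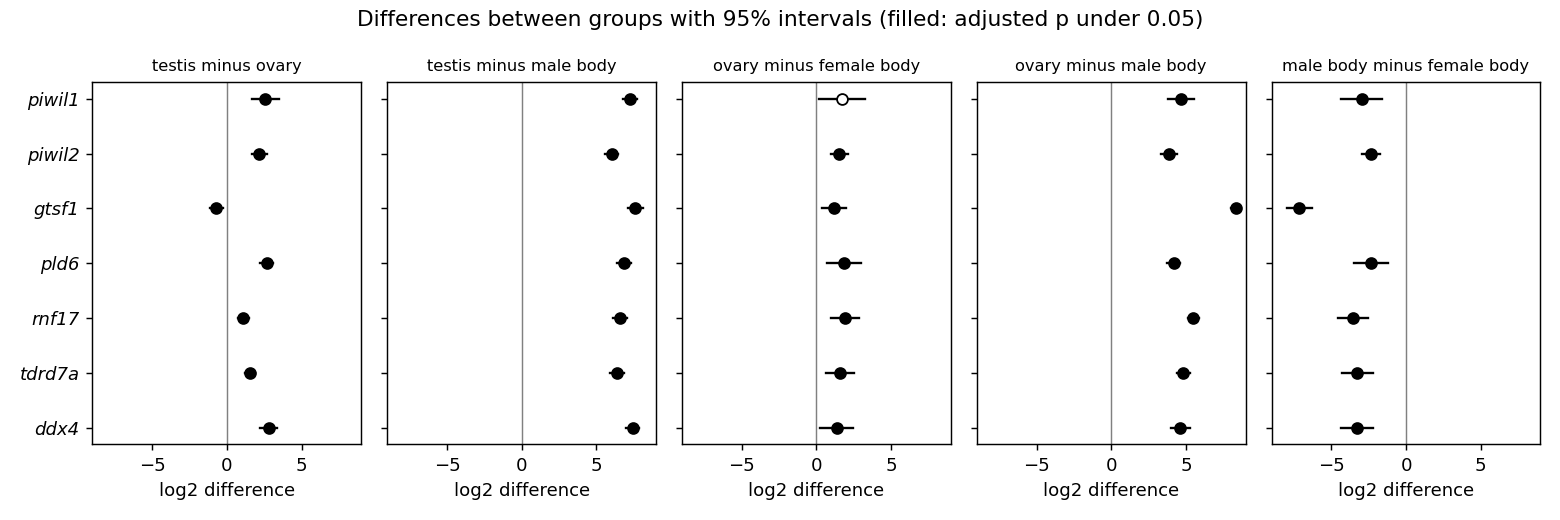
Log2 difference of each of the 7 genes in 5 comparisons, with 95% intervals from limma over 3 arrays a group and filled points for an adjusted p under 0.05. Every gene is higher in both gonads than in male body, gtsf1 alone lies left of 0 in testis minus ovary, and piwil1 (1.70) is the only open point in ovary minus female body.

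The female bodies gave a different picture. Here ddx4 read 691.0, 200.8 and 273.0, gtsf1 8187.6, 3254.2 and 3446.9, and tdrd7a 1361.5, 608.0 and 412.1 on arrays 1, 2 and 3. The signals were 703.4, 167.8 and 132.8 for piwil1, 742.9, 346.1 and 223.3 for rnf17, and 361.6, 137.9 and 86.9 for pld6. For piwil2 they were 357.2, 336.7 and 268.7, the most even of the 7. Array 1 was the highest of the 3 for each of the 7 genes, and the share of all probe sets for which this held was not counted. The summed signal of the body tissue markers was lowest on array 1, at 210000, 281300 and 346800, and that of the oocyte markers highest there. For each of the 7 genes every female body array was above every male body array, as for 19.5% of all probe sets tested. For gtsf1 the female bodies also overlapped the testes.

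Ovary was called higher than female body for 6 of 7 genes, with 28.2% of all probe sets called higher and 32.9% apart with ovary higher. The arrays were apart for 6 of 8 probe sets. The differences were much smaller than those from male body, with log2 values of 1.19 for gtsf1 (SE 0.35, adjusted p = 0.022), 1.36 for ddx4 (SE 0.47, adjusted p = 0.039), 1.53 for piwil2 (SE 0.24, adjusted p = 0.002), 1.58 for tdrd7a (SE 0.40, adjusted p = 0.012), 1.84 for pld6 (SE 0.49, adjusted p = 0.015) and 1.93 for rnf17 (SE 0.40, adjusted p = 0.0055). The median was 1.58 over the 7 genes and -0.05 over all probe sets. Female body array 1 overlapped the ovaries for ddx4 and piwil1, and piwil1 was not called (log2 1.70, SE 0.66, 95% interval 0.15 to 3.25, adjusted p = 0.059). The second piwil1 probe set was called (log2 1.76, SE 0.41, adjusted p = 0.0088), and so was piwil1 with the replicate number as a block (adjusted p = 5.5e-04). The pairing behind this block was inferred from these same arrays and is not given by the labels.

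Same-numbered ovary and female body arrays deviated together, and within these pairs ovary was higher for all 8 probe sets in 3 of 3 pairs. The share of all probe sets for which this held was not counted. Pair 1 had the smallest log2 difference for each, from 0.46 for gtsf1 to 1.08 for the second piwil1 probe set. In pairs 2 and 3 the differences were 1.53 and 1.58 for gtsf1, 2.19 and 1.90 for piwil1, and 2.28 and 2.74 for pld6. The number of genes called in the unpaired fit depended on single arrays. It was 7 without female body 1, where piwil1 reached a log2 difference of 2.45 (adjusted p = 0.0068). It fell to 3 without female body 2, when ddx4 (adjusted p = 0.13), gtsf1 (0.087) and pld6 (0.058) were lost, and to 4 without female body 3, ovary 1 or ovary 3, when ddx4 and gtsf1 were lost. Higher calls over all probe sets moved the same way, from 3982 to 4427 without female body 1 and to 2748 without female body 2. They were 3177 without female body 3, 2898 without ovary 1 and 3097 without ovary 3.

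Set against the ovary mean, the 7 genes stood at a median of 65.2% in female body 1, 23.5% in female body 2 and 19.7% in female body 3. The mean over the 3 bodies ran from 29.7% for rnf17 to 48.1% for gtsf1. The 14 oocyte markers, genes of the egg coat and of oocyte factors, stood at medians of 75.7%, 47.4% and 31.6% on the same arrays, and array 1 was highest for 14 of 14. On the male bodies the 7 genes stood at 0.154% (gtsf1) to 6.75% (piwil2) of the ovary mean. These percentages use signals without the floor, and gtsf1 lay under it on 2 of 3 male bodies, so the lowest value is not a measured level. Array 1 was also highest for each of the 7 genes, a pattern not counted over all probe sets. The values of piwil1, pld6, rnf17 and tdrd7a fell from array to array, as did the oocyte median. Those of piwil2 fell less, at 38%, 35.8% and 28.6%. From array 2 to array 3 ddx4 went from 22.6% to 30.7% and gtsf1 from 31.5% to 33.4%, while the oocyte median was lower on array 3. The part of ovarian material in these levels was not tested.

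**Figure D3:**
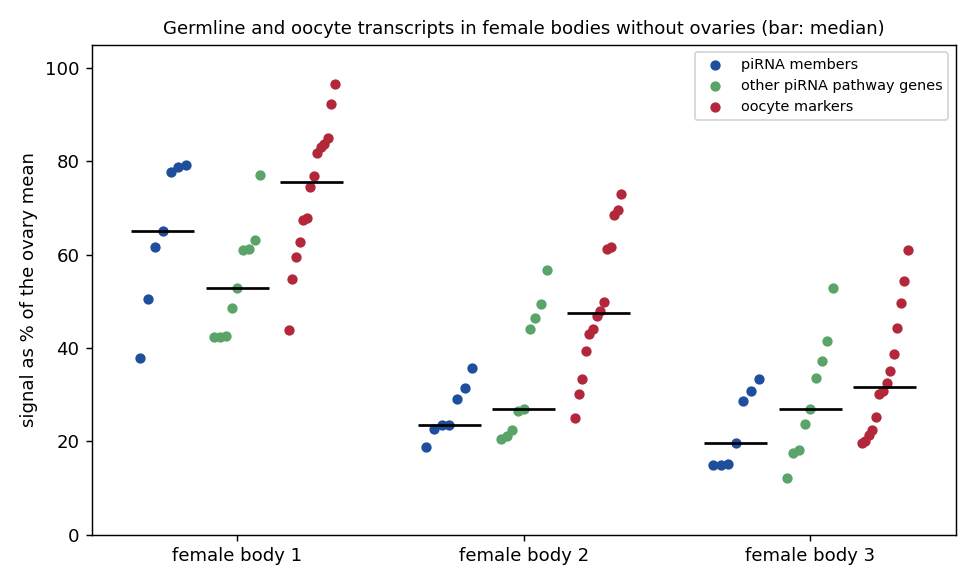
Signal in each female body as a percentage of the ovary mean, for the 7 genes, 9 other piRNA pathway genes and 14 oocyte markers, with points for single genes and bars for medians. The medians of the 7 genes fall from 65.2% on array 1 to 23.5% and 19.7% on the others, and those of the oocyte markers from 75.7% to 47.4% and 31.6%.

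Male and female bodies, both without gonads, differed for all 7 genes, and all were lower in male body. Of all probe sets, 12.9% were called lower in male body and 19.5% were apart with male body lower. The difference was largest for gtsf1, with a log2 value of -7.13 (SE 0.36, adjusted p = 1.0e-05), 140.0-fold higher in female body. The log2 differences of the others were -3.57 for rnf17 (adjusted p = 0.0018), -3.26 for ddx4 (0.0035), -3.25 for tdrd7a (0.0029), -2.97 for piwil1 (0.012), -2.35 for pld6 (0.013) and -2.33 for piwil2 (0.0013). With all 3 male bodies at the floor, those of piwil1 and pld6 are bounds, at least 7.82-fold and at least 5.1-fold higher in female body, and those of gtsf1, rnf17 and ddx4, with 2 of 3 there, depend on the floor. The second piwil1 probe set gave -2.17 (SE 0.44, adjusted p = 0.013). The bodies without overlap were 8 of 8 probe sets, and each of the 7 calls was kept when any single array was left out. The methods' t-test, a plain test of each probe set by itself, was run on the linear signals without log or floor. It called 0 of 7 genes after Benjamini-Hochberg (adjusted p of 0.061 to 0.25), and 2 of 7 had an unadjusted p under 0.05. Of all 14941 probe sets tested it called only 32 higher and 21 lower in male body. In limma with a floor of 100, piwil1 (log2 -1.32, adjusted p = 0.12) and pld6 (log2 -0.77, adjusted p = 0.2) were not called. All 14 oocyte markers were lower in male body too, with a median log2 difference of -6.86 (6 of them at the floor on all male bodies), so body sex and the amount of oocyte transcripts moved together in these samples.

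The gain from body to gonad was larger in males than in females for every gene. The test of this sex difference took the testis minus male body difference less the ovary minus female body difference over all 12 arrays, and 7 of 7 genes were called, where 23.1% of all probe sets were called in this direction. The log2 values were 6.42 for gtsf1 (SE 0.42), 6.07 for ddx4 (SE 0.54), 5.54 for piwil1 (SE 0.76), 5.00 for pld6 (SE 0.57), 4.80 for tdrd7a (SE 0.48), 4.68 for rnf17 (SE 0.48) and 4.49 for piwil2 (SE 0.31). Each of these values is the sum of a gonad part, testis minus ovary, and a body part, female body minus male body. For gtsf1 the gonad part was negative (-0.71), and the whole of its sex difference came from the bodies. For piwil2 and tdrd7a, read above the floor on all arrays, the gonad parts were 2.16 and 1.55 and the body parts 2.33 and 3.25. For piwil1 and pld6 all 3 male bodies were at the floor, and for rnf17, ddx4 and gtsf1 2 of 3, so the size of their body part, and with it of the sex difference, depends on the floor. With no floor the sex difference was 7.73 for piwil1 and 5.88 for pld6, and at a floor of 100 it was 3.90 and 3.42, called in each case.

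The order of the groups was testis, ovary, female body and male body in piwil1, piwil2, pld6, rnf17, tdrd7a and ddx4. For gtsf1 it was ovary, testis, female body and male body. Neighbours in these orders differed by the unpaired tests above apart from ovary and female body for piwil1. Those were called apart with the replicate block, whose pairing was inferred from the data. Testis and female body were not tested for gtsf1. Over the 12 arrays the log2 signals of pairs of genes without gtsf1 had Pearson correlations of 0.961 to 0.995 (15 pairs), and pairs with gtsf1 0.786 to 0.921 (6 pairs). These correlations describe 4 groups that stand far apart and share their arrays.

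Genes whose pattern over the 12 arrays was most like each of the 7 were sought among 6330 genes with a mean log2 signal of at least 7. The closest to rnf17 were zgc:55461 (r = 0.998), tdrd6a (0.995) and tdrd7a (0.995), the last 2 encoding Tudor domain proteins. Next were haus5 and lmnl3 (0.993 each). The gene closest to tdrd7a was also zgc:55461 (0.996), followed by rnf17 (0.995), odf3l2a and ccdc62 (0.994 each) and ncbp3 (0.992). For pld6 the closest were nxf1a (0.997), an mRNA export factor, and rad21l1 (0.996), whose mammalian counterpart is a meiotic cohesin. Then came cpap (0.995), esco2 (0.994) and cenpe (0.991). The cohesin acetyltransferase gene esco2 was among the 5 closest to piwil1 (0.988), piwil2 (0.989), pld6 (0.994) and ddx4 (0.988). The pattern of piwil1 was closest to esco2, ruvbl2 and nxf1a (0.988 each), then to ddx4 and pld6 (0.986 each). That of piwil2 was closest to styxl1 (0.993) and cpap (0.991), then to birc5a, nxf1a and esco2 (0.989 each). That of ddx4 was closest to ccdc77 (0.990), cpsf2 (0.989), esco2 (0.988), foxm1 (0.987) and piwil1 (0.986). The 5 closest to gtsf1 were cdca7a (0.991), zgc:103482, the mitotic kinase gene plk1, the oocyte translation factor gene eif4e1b and the steroidogenic enzyme gene cyp17a1 (0.988 each).

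Of a wider list of 27 other piRNA pathway gene symbols, 10 were found as the only symbol of a probe set. The others may be annotated under another name or not named, as with tdrd6a above, which was listed as tdrd6, and were not analysed here. Their testis and ovary levels were split, with 4 called higher in testis, 3 lower and 3 not called, and a median log2 difference of 0.12. The highest was mybl1, whose mouse counterpart A-MYB drives transcription of piRNA precursors and PIWI genes in spermatocytes. It read 1816.2, 1327.7 and 1201.6 in testis and 172.2, 104.6 and 159.7 in ovary, 10-fold higher in testis (log2 3.33, SE 0.26, adjusted p = 3.9e-05), and unlike the 7 genes it was not called between ovary and male body (log2 0.40, adjusted p = 0.17). At the other end was buc, which organises the Balbiani body of the zebrafish oocyte. Its signals were 7935.2, 7409.4 and 7796.7 in ovary and 273.3, 239.1 and 224.5 in testis, 31.5-fold higher in ovary (log2 -4.98, SE 0.12, adjusted p = 4.7e-07).

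Between these ends, factors of the mitochondrial surface went both ways. The genes tdrkh (log2 0.85, adjusted p = 4.1e-04) and gpat2 (0.79, adjusted p = 0.011) were higher in testis, whereas asz1 was 2.14-fold higher in ovary (log2 -1.10, adjusted p = 3.3e-04). The Tudor gene tdrd5 was lower in testis as well (log2 -0.72, adjusted p = 0.0048), opposite to rnf17 and tdrd7a. For tdrd15 (log2 0.32, adjusted p = 0.11) and tdrd3 (log2 -0.08, adjusted p = 0.68) no difference was called. The arginine methyltransferase gene prmt5 had a log2 difference of -0.43 (adjusted p = 0.061), while its partner wdr77 was called higher in testis (0.68, adjusted p = 0.028). How the testis and ovary calls of this list depend on scaling was not examined. Median centring took the difference of rnf17 from 1.11 to 0.30, so small differences between the gonads are not settled by the main fit. All 10 were called higher in testis than in male body, with a median log2 difference of 3.85 and a range of 1.41 to 4.93. The male bodies were all at the floor for tdrd15, gpat2 and tdrd5, whose values of 4.93, 4.85 and 4.45 are lower bounds, so these were not ranked against the 7 genes. Ovary was called higher than female body for 9 of 10, with mybl1 the exception (log2 0.24, adjusted p = 0.49), and male body lower than female body for 7 of 10.

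Helicases related to Vasa and genes of the other small RNA pathways were set beside these. Of 14 helicases measured, 3 were called higher in testis, 5 lower and 6 not called, with a median log2 difference of -0.10. The translation helicase gene eif4a1b was 6.70-fold higher in testis than in ovary (log2 2.74, SE 0.11, adjusted p = 2.8e-06), of a size with ddx4. Unlike ddx4, it was not called between testis and male body (log2 -0.28, adjusted p = 0.16). The other helicases called higher in testis than in ovary were eif4a3 (log2 0.63) and ddx5 (0.59), and the lowest was ddx39ab (-1.15). Between testis and male body 6 of 14 were called higher, 2 lower, with a range of -1.43 to 1.57, whereas ddx4 stood at 7.43. Of 5 genes of the miRNA and siRNA machinery, dicer1, which cuts precursor RNAs, was 4.28-fold higher in testis than in ovary (log2 2.1, adjusted p = 1.0e-03). It was not called between testis and male body (log2 0.44, adjusted p = 0.19). Between testis and ovary, ran was higher by 0.32 (adjusted p = 0.026) and dgcr8, the partner of Drosha, was lower (log2 -1.25, adjusted p = 7.1e-04). The others, drosha and tnrc6c2, were not called. How the testis and ovary calls of both lists depend on scaling was not examined. Small differences such as those of ran, eif4a3 and ddx5 are thus not settled by the main fit.

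**Figure D4:**
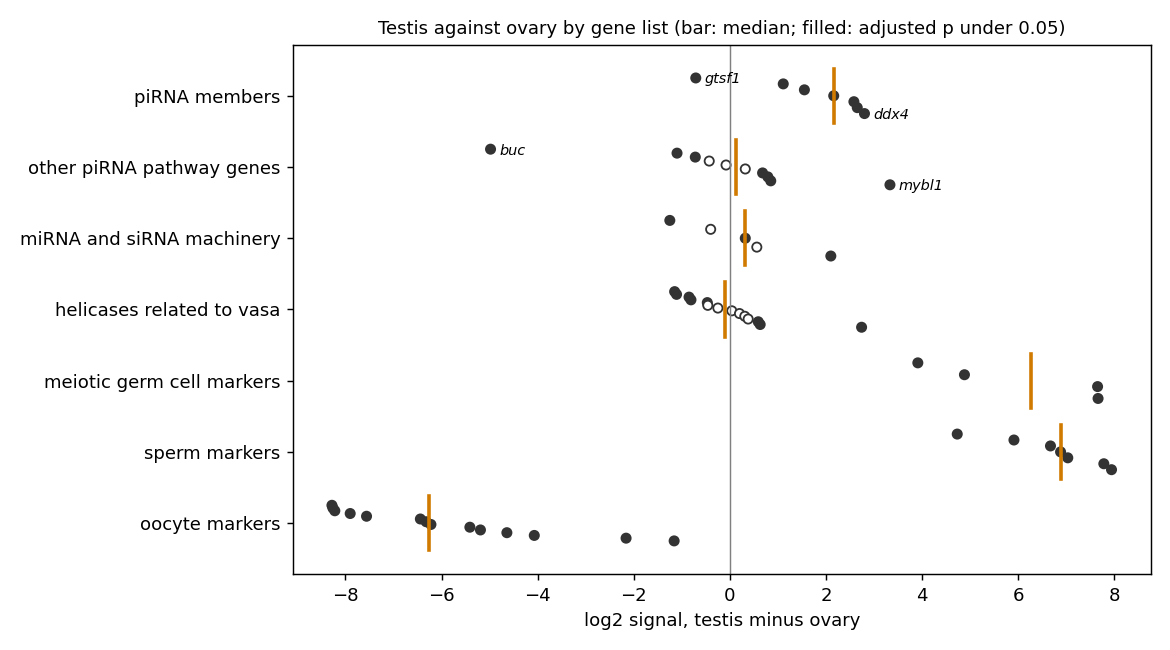
Log2 signal of testis minus ovary for the genes of 7 lists, with points for genes, filled where the adjusted p from limma was under 0.05, and bars for list medians. The 7 piRNA pathway and vasa genes lie between -0.71 (gtsf1) and 2.80 (ddx4). The medians are -6.27 for the oocyte markers and 6.27 and 6.88 for the meiotic and sperm markers. The helicases (-1.15 to 2.74) lie between these medians too.

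Markers of germ cell stages and of other tissues differed between the gonads as well. All 4 meiotic markers and all 7 sperm markers measured were higher in testis, with median log2 differences of 6.27 and 6.88 (1 meiotic and 3 sperm markers at the floor in all ovaries), and all 14 oocyte markers were lower, with a median of -6.27. The summed signal of the meiotic markers was 25040 to 28050 in testis and 448.8 to 976.5 in ovary. The 6 male-enriched genes, at 1.11 to 2.80, lay between the medians of both kinds of stage marker. So did the helicases related to Vasa (-1.15 to 2.74) and the miRNA and siRNA genes (-1.25 to 2.1), so this place is not particular to them. Markers of body tissues were higher in testis too, with 19 of 23 called higher and 0 lower and a median log2 difference of 3.13. Their summed signal was 27390 to 33840 in testis and 1297 to 1466 in ovary. The part of germ cell number, germ cell stage and other tissue in these differences was not tested.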

How the data were processed

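RNA was measured in 3 testes, 3 male bodies, 3 ovaries and 3 female bodies with 1 array each. The intensities analysed are linear signals that the authors made with GCOS 1.2 and deposited: a robust mean over the 16 probe pairs (25 bases each) of a probe set with mismatch signal subtracted, scaled to one trimmed mean per array, as checked on the values. This subtraction makes low signals noisy. The study's other algorithms were not used here. The 115 control probe sets among 15617 were dropped. The array's annotation gave 1 symbol to 10795, several to 135 and none to 4572, and only the first kind was named.

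Signals were floored at 32 and log2 transformed. With limma 3.58.1 (R 4.3.3), the 6 arrays of a comparison were fitted by lmFit, then by eBayes with its intensity trend option. All 12 arrays entered the fit of the sex difference. Probe sets at or below the floor on all arrays compared were not tested. P-values are two-sided and were adjusted by Benjamini-Hochberg over all probe sets tested. A fold is 2 to the power of the log2 difference and is a lower bound where the 3 arrays of one group all lie at the floor. Tables and plots were made with Python 3.11.15, pandas 2.3.3, NumPy 2.4.6 and matplotlib 3.10.9. The steps were tested on simulated data. The number of arrays limits the precision.

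Every probe set of the 7 genes is named. Where a gene had several probe sets, the brightest by mean log2 signal stood for it. Of the other lists up to 6 genes with the largest differences and those called against the majority are named. The marker lists of cell stages and tissues are given by counts and medians, and the other piRNA genes were named in full after their values were seen. The members, lists (other piRNA pathway genes, miRNA and siRNA machinery, helicases related to vasa, germ cell identity, meiotic, sperm, oocyte, gonad somatic and body tissue markers, vitellogenins) and tests were chosen with earlier results of these data known.

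The labels say that each fish gave a gonad and a body, not that replicate numbers match. Deviations from group means of same-numbered arrays correlated at 0.295 to 0.308 for testis and male body in all 3 pairs. For ovary and female body the values were 0.242 to 0.29, against -0.198 to -0.043 for different numbers in both. Deviations within a group cancel out, so the negative values partly follow from the positive ones. The numbers were taken to pair gonad and body. The main fits were unpaired, and the replicate block was an alternative. Alternatives were other floors or none, no filter or a minimum mean of 200, median centring, quantile normalization and 1 fit of all 12 arrays. Further ones were no intensity trend, the replicate block, the methods' t-test, the other piwil1 probe set, the mean of both piwil1 probe sets and leaving out each array.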

Additional observations from a re-analysis of the deposited data

Results flagged for a closer look

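The gain from body to gonad differed between males and females for all 7 genes, by a test of the difference itself in limma over 12 arrays. Of all probe sets, 23.1% were called in the same direction, with the larger gain in males. The log2 sex differences were 6.07 for ddx4, 6.42 for gtsf1, 5.54 for piwil1, 4.49 for piwil2, 5.00 for pld6, 4.68 for rnf17 and 4.80 for tdrd7a, and all were called under every alternative tried. Without female body 1, whose oocyte markers were the brightest of the 3, that of piwil1 was 4.80 (adjusted p = 4.0e-05). In all 7 genes the female body arrays stood above the male body arrays, as in 19.5% of all probe sets tested between the bodies. The part of ovarian material in the female bodies was not tested.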

How the results depend on the processing

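Over the 42 gene results, 825 alternative values were computed, of which 791 kept direction and call, 26 lost the call, 8 gained it and 0 reversed. These totals count the other piwil1 probe set and the mean of both piwil1 probe sets for every gene. Neither could alter the values of genes other than piwil1, so the count kept is inflated by them. Testis minus male body, ovary minus male body and the sex difference kept every call. In testis minus ovary, probe sets called higher fell to 3876 with a mean of at least 200, the split was 4843 higher and 4171 lower under quantile normalization and 3469 and 6420 under median centring, and genes of the 7 called lower were 0 under quantile normalization and in 1 fit of all 12 arrays. In ovary minus female body, 3982 higher and 4177 lower became 7310 and 2783 under median centring, with 2655 lower at a floor of 100 and 2479 with a mean of at least 200. The median of all probe sets moved there from -0.05 to 0.65. In ovary minus male body, 4649 higher and 6422 lower became 6730 and 4775 under median centring, with 4118 lower at a mean of at least 200. The sex difference, 3476 higher and 1902 lower, became 2833 and 3347 under quantile normalization and 1863 and 6229 under median centring. The methods' t-test called 32 probe sets higher and 21 lower in male than in female body, and 0 of the 7 genes. The filter on the mean left fewer probe sets to test. In testis minus ovary 3876 of 9114 were called higher with it, against 5934 of 13965 in the main fit. In ovary minus female body 2479 of 8751 were called lower, against 4177 of 14137. In ovary minus male body it was 4118 of 9901, against 6422 of 14919. These falls in count are thus not falls of like size in the share called. The floor of 100 left 11442 to test in ovary minus female body. The cause of the other shifts was not tested.

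In ovary minus female body the call of ddx4 was also lost with no filter (adjusted p = 0.096), quantile normalization (0.07) and the methods' t-test (0.12), and that of gtsf1 with no filter (0.062) and the methods' t-test (0.067). With arrays left out in turn, male minus female body gave 817 to 3531 probe sets higher and 1036 to 2237 lower, against 2688 and 1925. The lowest counts came without male body 3, and the lower calls also moved by over 1.5 times without female body 2 (1205), male body 1 (1177) and male body 2 (1241). The higher calls did so without these 3 (930, 1077 and 1309) and without female body 1 (1624). The log2 value of piwil1 there was -2.22 without female body 1. Ovary minus female body gave 2748 to 4427 higher, 3626 to 4922 lower, and 3 to 7 of the 7 genes higher. With the replicate block, 5852 probe sets were higher and 3292 lower in testis than in ovary, and among the 7 genes piwil1 in ovary minus female body was the only call that changed. Between testis and ovary, and between the bodies, same-numbered arrays share only a number (correlations of -0.049 to 0.043 and 0.046 to 0.159). The pld6 difference between the bodies was not tested with a mean of at least 200. Differences from male body depend on the floor, since most signals there lie under it.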

Other observations

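Genes of germ cell identity outside the piRNA pathway were also split between the gonads. The RNA-binding protein gene dazl was called higher in testis than in ovary in the main fit (log2 0.59, adjusted p = 0.024). How so small a difference depends on scaling was not examined. The nanos1 gene read 79.9, 79.8 and 95.1 in testis and was at the floor in all 3 ovaries, at least 2.65-fold higher in testis (adjusted p = 9.3e-05), but it was lower in testis than in male body (log2 -1.82, adjusted p = 3.7e-04). The genes dnd1 (log2 -1.86, adjusted p = 8.2e-04) and nanos3 (-6.42, adjusted p = 1.2e-06), both needed for germ cells in the embryo, were lower in testis, as was celf1 (log2 -1.10, adjusted p = 3.0e-04). With the 4 of the 7 genes that this list also holds, 6 of 9 were called higher in testis and 3 lower.

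The other lists placed the bodies and gonads apart. All 3 vitellogenins, yolk proteins made in the liver, were lower in male than in female body (median log2 -9.08, that of vtg4, whose male bodies were all at the floor). Of 23 body tissue markers, 22 were lower in testis than in male body and 23 were lower in ovary than in female body. Of 13 gonad somatic markers tested, 6 were called higher in testis than in ovary, 2 lower and 5 not called, with a median log2 difference of 1.31. Steroidogenic genes went both ways. Higher in testis were star (log2 6.85) and cyp11c1 (5.37), and lower were cyp11a1.1 (-4.85) and hsd3b2 (-4.71). For cyp17a1, cyp19a1a and hsd17b3 no difference was called.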
